A study of Mus musculus with 24 samples.

Results

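The metallothionein genes Mt1, Mt2 and Mt3 were followed through denervation of the mouse calf in 8 groups of 3 samples. They are 3 of 17711 genes named by a probe on the array and 3 of the 11317 genes with enough signal to be tested, and each was read by 1 probe. The members were chosen by a measured difference: earlier results of these data had singled out Mt1 and Mt2 in denervated MuRF1 knockout muscle at day 14. Every comparison of the members with the knockout samples of day 14 is therefore given here as a description without a test, and adjusted p-values of the members are given only for comparisons that use none of those samples. Whether the wild type samples of day 14 had a part in that choice is not known. Adjusted p-values of the members that rest on them may therefore not be free of it. Genes outside the family were tested in all comparisons.

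The samples were triceps surae, the calf muscle group, of C57/Bl6 mice aged 6 months. Mice of 4 groups were wild type and those of the other 4 lacked MuRF1, the product of Trim63, which tags muscle proteins with ubiquitin. Denervated muscle was taken 3 or 14 days after a part of 1 sciatic nerve had been cut out, and control muscle came from littermates of the same genotype that had no surgery, so the operation and the loss of the nerve cannot be told apart. The labels do not describe the knockout allele. Whether samples of 1 group are separate mice is not stated either, so p-values measure only the spread between these samples.

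Metallothioneins are small, cysteine-rich proteins of the cytosol that bind zinc and copper and can take up cadmium and oxidants. Mt1 and Mt2 are made in most tissues and are induced by zinc through the transcription factor MTF-1, which binds metal response elements in their promoters, and also by glucocorticoids, by IL-6 acting through STAT3 and by oxidative stress. Mt3 was first known from the brain as a growth inhibitory factor of neurons and responds less to metals. In skeletal muscle, metallothionein transcripts are known to rise under several wasting conditions.

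The promoter windows are shown because metal response elements are the best-known shared control element of the family. Whether the matches bear on the levels of Mt1, Mt2 or Mt3 in these muscles was not tested. Each line is the 250 bases before the annotated start from RefSeq on GRCm38.p6, plus strand, 5′ to 3′. Capitals mark every match to TGCACNC or TGCGCNC, the core of the metal response element, searched on both strands. All 3 members matched an entry of the RefSeq table. The windows lie at chr8:94178839-94179088 for Mt1, chr8:94172368-94172617 for Mt2 and chr8:94152357-94152606 for Mt3.
Mt1: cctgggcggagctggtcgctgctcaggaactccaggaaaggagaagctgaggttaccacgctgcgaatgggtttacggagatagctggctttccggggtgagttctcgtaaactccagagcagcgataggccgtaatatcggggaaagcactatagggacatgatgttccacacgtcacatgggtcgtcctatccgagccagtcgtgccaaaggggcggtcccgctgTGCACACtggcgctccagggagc
Mt2: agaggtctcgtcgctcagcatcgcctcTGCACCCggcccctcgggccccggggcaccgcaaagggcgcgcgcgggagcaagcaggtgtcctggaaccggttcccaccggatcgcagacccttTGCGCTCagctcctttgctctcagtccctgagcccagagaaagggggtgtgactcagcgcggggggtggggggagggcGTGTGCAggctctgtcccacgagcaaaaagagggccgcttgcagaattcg
Mt3: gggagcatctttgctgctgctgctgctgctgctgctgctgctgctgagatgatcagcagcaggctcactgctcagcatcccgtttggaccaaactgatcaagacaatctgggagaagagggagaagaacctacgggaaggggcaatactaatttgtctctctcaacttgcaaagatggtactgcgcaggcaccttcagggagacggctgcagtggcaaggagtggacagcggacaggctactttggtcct

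With the 50 bases after the start included, the Mt1 window held 3 matches, Mt2 4 and Mt3 1. The Mt1 match before the start lay at bases -23 to -17, and its other matches, TGCACTC and TGCGCTC, lay at bases 3 to 9 and 21 to 27 after it. The Mt2 matches before the start began at bases -223, -128 and -50, the last on the minus strand, and the only Mt3 match began 28 bases after the start. Of 32851 windows of 300 bases, 25.7% held at least 1 such match, 1.97% at least 3 and 0.517% at least 4. The antioxidant response element TGACNNNGC had 1 match in the Mt2 window and none in those of Mt1 and Mt3, against 12.4% of all windows with at least 1. The STAT site TTCNNNGAA, the glucocorticoid response element, AGAACA and TGTTCT with NNN between them, and the letters TATAAA had no match in the 3 windows, against 8.3%, 0.00913% and 13.6% of all windows. The Mt2 match of TGACNNNGC overlapped no metal response element match, and a match describes the letters only. Sequence outside these windows was not searched. The annotated starts were not checked against the starts used in muscle, so these counts describe the windows and not the whole promoters.

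On the chromosome the members stand in the order Mt4, Mt3, Mt2, Mt1 between Bbs2 and Nup93, on mouse chromosome 8. Mt4 is the family member known from stratified epithelia.

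The arrays had a median intensity of 124.7 to 199.8, and each detected between 15532 and 18755 of its 46632 probes at a detection p under 0.05. Trim63 had a log2 normalized intensity of 4.83 to 5.86 in the 12 knockout samples and of 9.05 to 11.37 in the 12 wild type samples. All 10 skeletal muscle fibre markers, among them Acta1, Ckm and Myh4, were detected in every group. Of the 3 day 3 denervated knockout arrays, replicates 2 and 3 detected 18434 and 18520 probes and stood apart from the other day 3 arrays, so member values, list counts and values of named list genes that rest on them are given with and without them. Without them the group has 1 denervated array, replicate 1, and the spread is taken from the other groups.

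Denervation for 3 days raised Mt1 and Mt2 steeply in wild type and in knockout muscle. Their log2 normalized intensity then separated by genotype at day 14, where wild type muscle had come most of the way back to the control level and knockout muscle had not. Mt3 was near background in most control samples and was brightest in denervated muscle at day 14. Of the 3 genes, 3 rose in wild type muscle at day 3, where 20% of all genes tested rose, 2 in knockout muscle at day 3 against 20.2%, and 3 in wild type muscle at day 14 against 22.9%. In knockout muscle at day 14, the comparison that chose the members, 19% of all genes rose, and nothing is read from the members' count there. In bulk muscle, more cells of a type that carries these transcripts and more transcript per cell cannot be told apart.

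**Figure D1:**
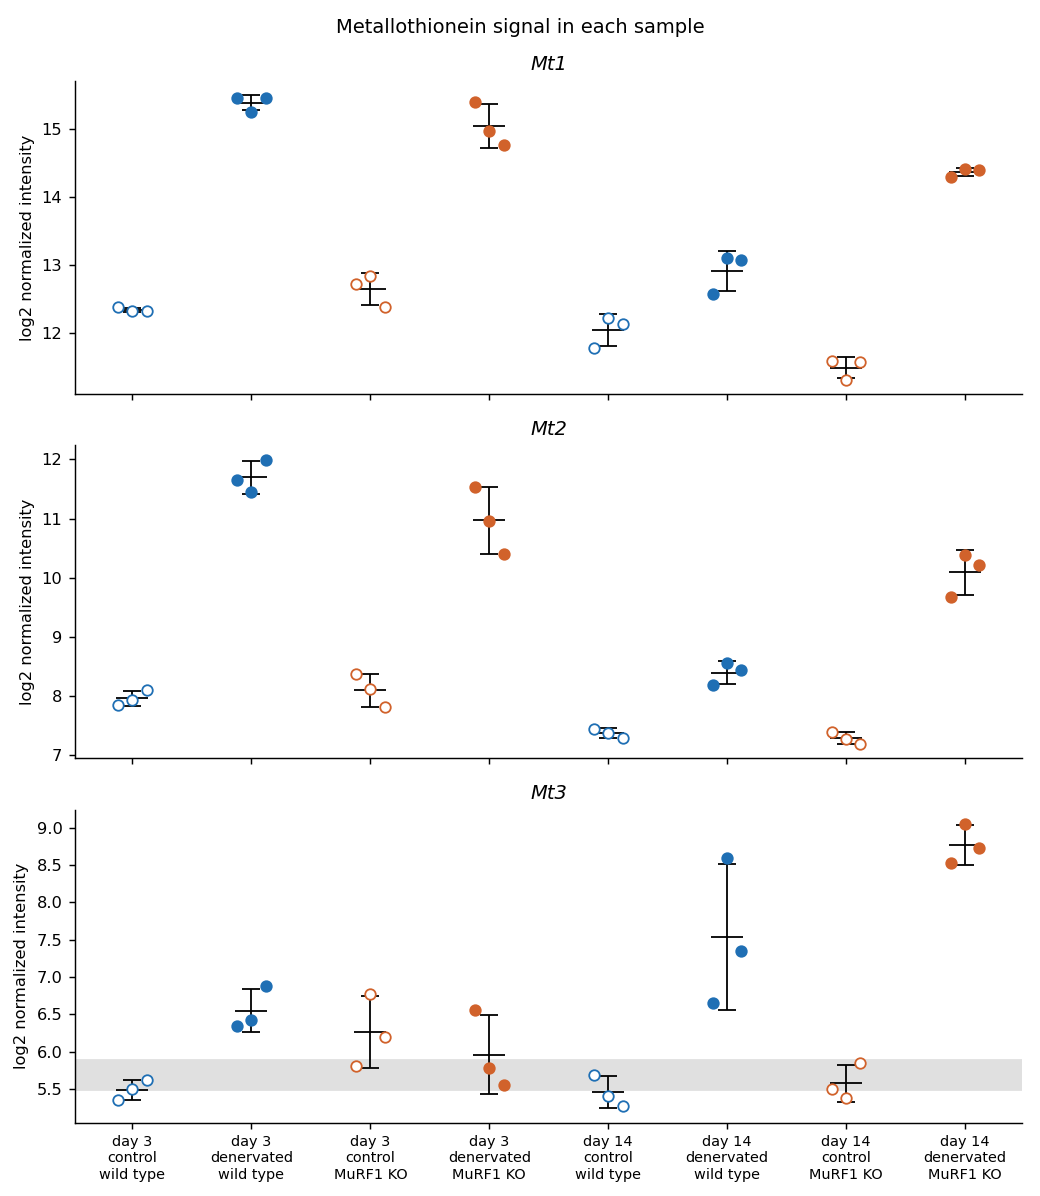
Log2 normalized intensity of Mt1, Mt2 and Mt3 in each of the 24 samples by group, with blue for wild type, orange for MuRF1 knockout, filled points for denervated and open points for control muscle. Bars are the mean and SD of 3 samples, and the grey band in the Mt3 panel spans the dimmest detected signal of the 24 arrays. Mt1 stands at 15.39 in denervated wild type muscle at day 3 and 12.92 at day 14, while in the knockout it stands at 15.05 and 14.37.

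Mt1 was detected on all 24 arrays. Wild type controls of day 3 had log2 normalized intensities of 12.38, 12.33 and 12.33, and denervated samples of 15.45, 15.26 and 15.45. The lowest denervated sample lay far above the highest control. The deposited intensity, before any correction, was 4537, 4872 and 4401 in the controls against 39233, 37573 and 39162 in denervated muscle. The difference of 3.04 on the log2 scale (SE 0.17) was an 8.23-fold rise, with a 95% interval of 6.44-fold to 10.5-fold (limma, adjusted p = 1.308e-11). This placed Mt1 at rank 51 from the top of the 11317 genes.

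Knockout samples of day 3 had Mt1 at 12.72, 12.84 and 12.38 in controls and at 15.40, 14.98 and 14.76 after denervation. The groups did not overlap, and the denervated samples were spread more widely than those of the wild type. Mt1 rose by 2.40 on the log2 scale (SE 0.17), a 5.27-fold rise (limma, adjusted p = 8.55e-10), at rank 70. With replicate 1 as the only denervated array the difference was 2.75.

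At day 14 Mt1 in wild type muscle was at 11.79, 12.23 and 12.14 in controls and at 12.58, 13.11 and 13.07 in denervated samples. All 3 denervated samples were above all controls, yet each was more than 2 log2 units below every denervated wild type sample of day 3. The 1.83-fold rise, 0.87 on the log2 scale (SE 0.17), passed the test (limma, adjusted p = 0.0002976) but stood only at rank 1101. The fall of the response from day 3 to day 14 in the wild type was itself tested: the day 14 difference was lower than that of day 3 by 2.17 on the log2 scale (log2 difference -2.17, SE 0.24, limma, adjusted p = 6.77e-06). Both p-values use the day 14 wild type samples and may not be free of the choice of members.

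In knockout muscle at day 14 Mt1 was at 11.59, 11.32 and 11.58 in controls and at 14.30, 14.41 and 14.40 after denervation. These denervated samples were tightly grouped, and each was above every wild type sample of that day. Their difference from controls was 2.87 on the log2 scale, 7.34-fold, at rank 62, and the response at day 14 was higher than that at day 3 by 0.48. That change was 0.13 without replicates 2 and 3 of the day 3 denervated samples, 0.21 with the number of detected probes as a covariate and 0.26 with arrays centred on their medians. In these descriptions, given without a test, denervated knockout muscle of day 14 held 2.73-fold the Mt1 signal of denervated wild type muscle.

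Mt1 and Mt2 are closely related in sequence, and whether their probes bind each other's transcript was not tested. Mt2 was also detected on all 24 arrays and gave the same order of groups, with a larger fitted difference at day 3. Wild type samples of day 3 had log2 normalized intensities of 7.85, 7.92 and 8.10 in controls and of 11.65, 11.45 and 11.997 after denervation. The groups were separated by more than 3 log2 units. Mt2 rose 13.4-fold, 3.74 on the log2 scale (SE 0.23, limma, adjusted p = 4.579e-11), and ranked 21 from the top. Its deposited intensity was 345.0, 375.2 and 370.1 in the controls and 3600, 3186 and 3976 after denervation.

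Mt2 in knockout muscle at day 3 was at 8.37, 8.11 and 7.81 in controls and at 11.54, 10.97 and 10.40 after denervation. Replicate 1 of the denervated samples was as high as the wild type, and replicates 2 and 3 were lower. The rise was 7.33-fold, 2.87 on the log2 scale (SE 0.23, limma, adjusted p = 3.874e-09), at rank 37, and the log2 difference was 3.45 with replicate 1 as the only denervated array.

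At day 14 Mt2 in wild type muscle was at 7.45, 7.38 and 7.28 in controls and at 8.18, 8.55 and 8.44 after denervation. The groups did not overlap. The denervated mean of 8.39 was above that of its own controls, 7.37, and above that of the day 3 controls, 7.96. The rise was 2.03-fold, 1.02 on the log2 scale (SE 0.23, limma, adjusted p = 0.0009986), at rank 782. The day 14 response was lower than the day 3 response by 2.72 on the log2 scale (log2 difference -2.72, SE 0.32, limma, adjusted p = 1.658e-05). For this change of response, 2 of the 3 members were lower at day 14, against 6.20% of all genes. The limit set by the choice of members holds for these day 14 tests of Mt2 and for this count too.

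Mt2 in the knockout at day 14 was at 7.39, 7.27 and 7.19 in controls and at 9.67, 10.39 and 10.21 after denervation. All denervated samples were above every denervated wild type sample of that day. As a description without a test, the difference from controls was 2.81 on the log2 scale, 6.99-fold, at rank 65. The response differed from that of day 3 by -0.07, a value that became -0.64 without replicates 2 and 3 of the day 3 denervated samples, -0.62 with median centring and -0.50 with the covariate. Denervated knockout muscle of day 14 held 3.24-fold the Mt2 signal of denervated wild type muscle.

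**Figure D2:**
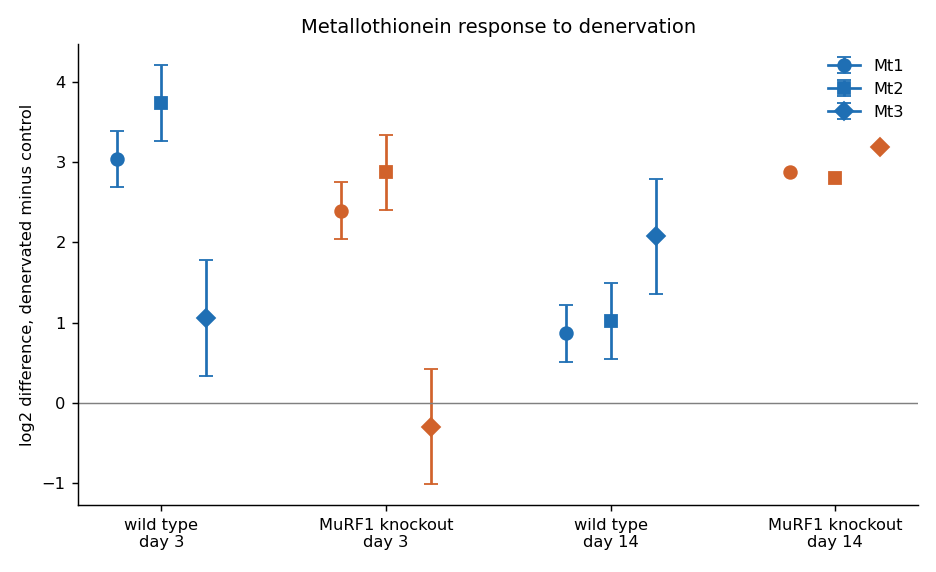
Denervated minus control difference in log2 normalized intensity of Mt1 (circles), Mt2 (squares) and Mt3 (diamonds) for each genotype and day, with blue for wild type and orange for MuRF1 knockout. Bars are 95% confidence intervals from the limma fit; none is drawn for knockout muscle at day 14, which chose the members. Mt1 and Mt2 stand at 3.04 and 3.74 in wild type muscle at day 3 and at 0.87 and 1.02 at day 14, and Mt3 stands at 1.06 and 2.08.

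Mt3 was a dim transcript here. In wild type control muscle at day 3 none of the 3 arrays detected it, with log2 normalized intensities of 5.35, 5.50 and 5.62, and all 3 denervated arrays did, at 6.35, 6.42 and 6.88. A fold against such a group is a bound, taken as the mean of the denervated samples against the higher of the control arrays' own Mt3 signal and the weakest signal that counted as detected on them. By this bound Mt3 rose at least 1.65-fold, with a fitted log2 difference of 1.06 (SE 0.35, limma, adjusted p = 0.01988). The call was lost without replicate 1 of the controls (0.99, adjusted p = 0.0611) or without replicate 3 of the denervated samples (0.89, adjusted p = 0.08566).

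Mt3 in knockout muscle at day 3 was at 5.82, 6.77 and 6.20 in controls, of which 2 were detected, and at 6.56, 5.78 and 5.55 after denervation, all detected. The groups overlapped. The log2 difference was -0.30 (95% interval -1.02 to 0.42, limma, adjusted p = 0.5428), and 0.30 (adjusted p = 0.733) with replicate 1 as the only denervated array and the spread of the other groups.

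At day 14 in wild type muscle Mt3 was at 5.69, 5.41 and 5.27 in controls, with 1 of 3 detected, and at 6.66, 8.59 and 7.36 after denervation. All 3 denervated samples were above the controls, but they were spread over almost 2 log2 units with replicate 2 highest. Mt3 had a fitted rise of 4.22-fold, 2.08 on the log2 scale (SE 0.35, limma, adjusted p = 5.272e-05), at rank 174. The control mean of 5.46 was near background, which limits this fold. Leaving out 1 sample at a time gave 1.55 to 2.52, the lowest without denervated replicate 2.

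Knockout samples of day 14 had Mt3 at 5.50, 5.38 and 5.85 in controls, with 1 of 3 detected, and at 8.52, 9.05 and 8.73 after denervation. All denervated samples were far above the controls, and they overlapped the wild type only at its highest sample. As a description without a test, the fitted difference was 3.19 on the log2 scale, 9.15-fold, at rank 36. The control mean of 5.58 was near background, which limits this fold too. Mt3 thus had its highest mean levels at day 14 in both genotypes, where Mt1 and Mt2 had theirs at day 3. In the wild type the Mt3 response was 1.02 higher on the log2 scale at day 14 than at day 3, a difference that did not pass the test (SE 0.49, limma, adjusted p = 0.1744).

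Ordered by level, Mt1 and Mt2 gave the same sequence of 8 groups. Denervated wild type muscle of day 3 was highest, followed by denervated knockout muscle of day 3, denervated knockout muscle of day 14, denervated wild type muscle of day 14, and then the controls of day 3 and of day 14. For both genes the samples overlapped between the highest group and the next, and between denervated wild type muscle of day 14 and knockout controls of day 3. For Mt2, the knockout and wild type controls overlapped at each day as well. For Mt3 every group overlapped its neighbour in the order, from denervated knockout muscle of day 14 at 8.77 ± 0.27 (SD, n = 3) and denervated wild type muscle of day 14 at 7.54 ± 0.98 down to wild type controls of day 14 at 5.46 ± 0.22.

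Loss of MuRF1 made no difference to the metallothioneins at day 3 that passed the test, in control or in denervated muscle. In denervated muscle the knockout minus wild type log2 difference was -0.34 for Mt1 (95% interval -0.70 to 0.01, limma, adjusted p = 0.219), and samples of the genotypes overlapped. For Mt2 it was -0.73 (-1.20 to -0.26, adjusted p = 0.05342) and for Mt3 -0.59 (-1.31 to 0.13, adjusted p = 0.3101), also with overlap. By limma 0 of 3 members passed, 1 had an unadjusted p under 0.05, and 7.17% of all genes passed. The Mt1 and Mt2 values turned on single arrays. Without denervated knockout replicate 1 they were -0.52 (adjusted p = 0.03968) and -1.02 (adjusted p = 0.003317), and with replicate 1 as the only denervated knockout array they were 0.01 (adjusted p = 0.9959) and -0.16 (adjusted p = 0.9409), tested with the spread of the other groups.

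In control muscle of day 3 the knockout minus wild type log2 difference was 0.30 for Mt1 (limma, adjusted p = 0.4459), 0.14 for Mt2 (adjusted p = 0.8486) and 0.77 for Mt3 (adjusted p = 0.3188). By limma 0 of 3 passed, 1 had an unadjusted p under 0.05, and 0.521% of all genes passed. In control muscle of day 14, described without a test, the differences were -0.56, -0.09 and 0.12.

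The difference between the genotypes' responses at day 3 was -0.64 for Mt1 (95% interval -1.14 to -0.14, limma, adjusted p = 0.1819), -0.87 for Mt2 (-1.54 to -0.20, adjusted p = 0.178) and -1.36 for Mt3 (-2.37 to -0.34, adjusted p = 0.1698). None of the 3 passed by limma, all 3 had an unadjusted p under 0.05, and 1.08% of all genes passed. Without denervated knockout replicate 1 all 3 passed, at -0.82 (adjusted p = 0.03464), -1.16 (adjusted p = 0.02217) and -1.65 (adjusted p = 0.04483). With replicate 1 alone the values were -0.29, -0.29 and -0.76. At day 14 the same difference was 2.01 for Mt1, 1.78 for Mt2 and 1.12 for Mt3, given without a test. Leaving out 1 sample at a time gave 0.68 to 1.64 for Mt3, the lowest without replicate 1 and the highest without replicate 2 of the denervated wild type samples.

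Between the control groups of the 2 days, averaged over genotypes and without a test, Mt1 was 0.72 lower on the log2 scale at day 14 (log2 difference -0.72), Mt2 0.70 lower (-0.70) and Mt3 0.36 lower (-0.36). With arrays centred on their medians the median of all genes moved by 0.35, and the Mt1 and Mt2 differences became -0.18 and -0.28. The same centring moved the median of all genes by 0.18 in the wild type denervation response of day 3 and by 0.41 in that of the knockout, where the Mt1 differences were then 3.08 and 2.55.

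The ratio of the Mt1 to the Mt2 signal was not constant. As a log2 difference within each array it was 4.39 ± 0.16 (SD, n = 3) in wild type controls of day 3 and 3.69 ± 0.20 after denervation, and 4.55 ± 0.19 and 4.08 ± 0.26 in the knockout. In these means Mt2 signal gained on Mt1 signal at day 3. At day 14 it was 4.68 ± 0.30 and 4.53 ± 0.12 in wild type, and 4.21 ± 0.17 and 4.28 ± 0.31 in knockout muscle. The size of the ratio itself has no meaning between different probes, and binding of one transcript to the other's probe was not tested. Quantile normalization gave Mt1 the same value, 15.4511, in replicates 1 and 3 of denervated wild type muscle at day 3. Their deposited intensities were 39233 and 39162. Whether so bright a signal is compressed, which bears on this ratio and on the larger Mt2 difference, was not tested.

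Across the 24 arrays, which share the 8 group differences, Mt1 and Mt2 had a Pearson r of 0.985. With each group's mean removed it was 0.651. In denervated knockout muscle of day 3, which holds the 2 arrays that stood apart, both genes fell from replicate 1 to replicate 3. In wild type controls of each day, the sample highest for Mt2 was the lowest for Mt1. The r values of this paragraph were not computed without those 2 arrays. Mt3 had an r of 0.440 with Mt1 and 0.394 with Mt2, and of 0.579 and 0.538 with group means removed.

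**Figure D3:**
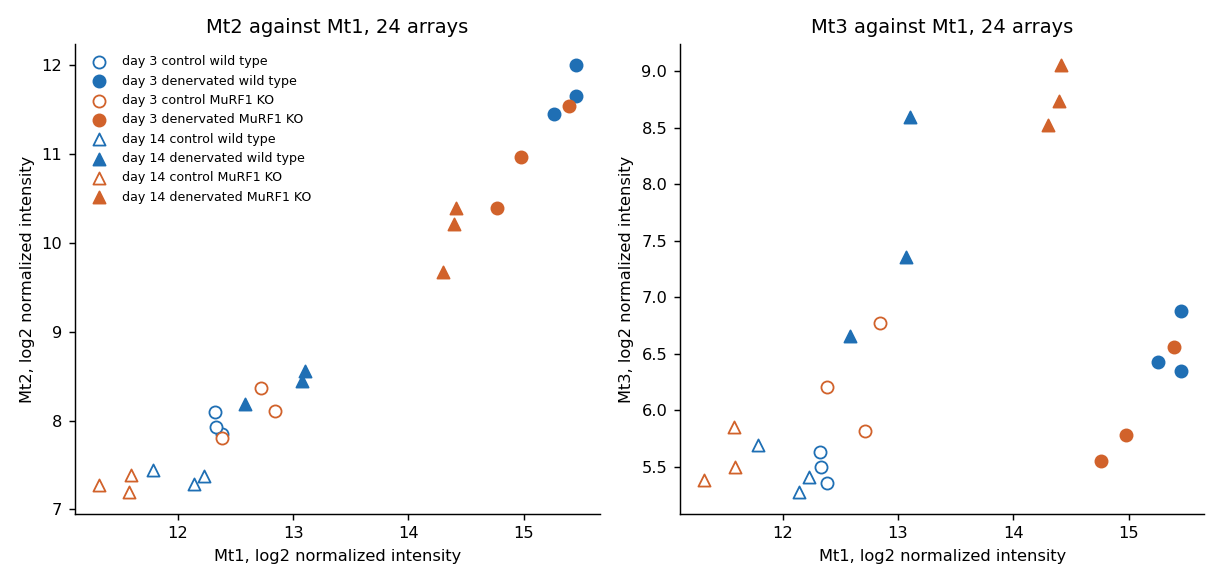
Log2 normalized intensity of Mt2 (left) and of Mt3 (right) against that of Mt1 in the 24 samples. Blue is wild type, orange MuRF1 knockout, filled denervated, open control, circles day 3 and triangles day 14. Mt2 follows Mt1 (r = 0.985), while the highest Mt3 values belong to denervated muscle of day 14 and not to the samples with the highest Mt1.

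Genes of zinc transport and metal sensing moved in both directions. Of 25 listed genes 18 could be tested. Slc39a11, a zinc importer, was the only one to rise in all 4 denervation comparisons, by 1.24 and 1.02 on the log2 scale in wild type muscle at days 3 and 14 and by 0.73 and 0.58 in knockout muscle. Its day 3 knockout call was lost without denervated replicates 2 and 3 (0.68, limma, adjusted p = 0.05827). Slc30a2, a vesicular zinc transporter, fell in all 4, by -2.35 in knockout muscle at day 14 and at least 1.70-fold in wild type muscle at day 3, where no denervated array detected it, and it still passed in knockout muscle at day 3 without those 2 arrays (-1.57). Slc30a1, the zinc exporter of the plasma membrane and a known MTF-1 target whose promoter window held 2 metal response element matches, had differences of -0.01, 0.09, 0.13 and 0.01 in the order wild type and knockout at day 3, then day 14, and none passed. Mtf1 itself had a log2 difference of 0.76 in wild type muscle at day 14, which passed, and -0.05 in the knockout, which did not, and the genotype difference of that response passed too (-0.81, limma, adjusted p = 0.03933).

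By count, 4 zinc genes rose and 3 fell in wild type muscle at day 3 against 20% and 17.5% of all genes, with a median log2 difference of 0.13 against 0.01 for all genes. In knockout muscle at day 3, 5 rose and 1 fell against 20.2% and 15.6%, and 1 rose without denervated replicates 2 and 3. At day 14, 7 rose and 1 fell in the wild type against 22.9% and 18.6%, and 1 rose and 2 fell in the knockout against 19% and 17.7%. The zinc importers Slc39a6 and Slc39a10 were among the 7 in wild type muscle at day 14, at 0.89 and at least 1.35-fold.

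Copper and iron genes passed the test in both directions. Lox, the copper-dependent enzyme that cross-links collagen, rose in all 4 comparisons, by 2.00 and 0.91 on the log2 scale in wild type and by 1.25 and 1.76 in knockout muscle at days 3 and 14. Slc31a1, the copper importer, fell in wild type muscle at day 3 (-0.35) and in the knockout at day 14 (-0.96). Of 14 copper genes tested 3 rose and 2 fell in wild type muscle at day 3, against 20% and 17.5% of all genes. In the knockout 3 rose and 4 fell against 20.2% and 15.6% (2 and 0 without denervated replicates 2 and 3). At day 14, 3 rose and 6 fell in wild type against 22.9% and 18.6%, and 5 and 4 in the knockout against 19% and 17.7%. Slc40a1, the iron exporter ferroportin, fell in all 4, by -1.11 and -0.61 in wild type and -0.92 and -1.70 in the knockout. Tfrc, the transferrin receptor, fell in both genotypes at day 3 (-1.57 and -1.46) and at day 14 only the knockout value passed (-1.002 against 0.06), a genotype difference of -1.06 that passed too (limma, adjusted p = 0.004975). Of 10 iron genes tested 4 rose and 3 fell in wild type muscle at day 3, 3 and 3 in the knockout (2 and 2 without the 2 arrays), 3 and 2 in wild type at day 14, and 4 and 3 in the knockout, against the same shares of all genes. Without the 2 arrays the day 3 knockout values were 1.42 for Lox, -1.27 for Slc40a1 and -1.60 for Tfrc, and all passed.

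More genes of the oxidative stress response rose than fell in each comparison. Of 17 tested genes of the NRF2 list 12 rose and 2 fell in wild type muscle at day 3, against 20% and 17.5% of all genes, with a median log2 difference of 0.68 against 0.01. In the knockout 8 rose and 2 fell against 20.2% and 15.6%, with a median of 0.38 against 0.04 (6 and 1 without denervated replicates 2 and 3). At day 14, 8 rose and 2 fell in the wild type against 22.9% and 18.6% (median 0.22 against 0.05), and 8 rose and 1 fell in the knockout against 19% and 17.7% (median 0.40 against 0.03). Hmox1, which breaks down heme, rose 3.69-fold and 3.24-fold in wild type and knockout muscle at day 3 and 1.97-fold and 3.25-fold at day 14. Srxn1, which repairs oxidised peroxiredoxins, rose 3.56-fold and 2.43-fold at day 3 and 2.45-fold and 1.93-fold at day 14. Gclm, the modifier subunit of glutathione synthesis, rose by 1.07, 0.75, 0.85 and 1.08 on the log2 scale in the same order. Nqo1, a quinone reductase and classical NRF2 target, rose in wild type muscle at day 3 (0.68) and fell at day 14 in both genotypes (-1.47 and -0.81). Without denervated replicates 2 and 3 the day 3 knockout values were 1.89 for Hmox1, 0.99 for Srxn1 and 0.59 for Gclm on the log2 scale, and all 3 passed.

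Genes of IL-6 and STAT3 signalling and of the acute phase that passed the test were nearly all higher after denervation. Of 19 tested, 13 rose and 1 fell in wild type muscle at day 3 (median 0.95), against 20% and 17.5% of all genes. In the knockout 10 rose and 0 fell against 20.2% and 15.6% (median 0.79, and 9 rose without denervated replicates 2 and 3). At day 14, 10 rose and 1 fell in wild type against 22.9% and 18.6% (median 0.70), and 9 rose and 1 fell in the knockout against 19% and 17.7% (median 0.79). Orm2, an acute phase plasma protein, rose at least 52.1-fold and 9.02-fold in wild type and knockout muscle at day 3 and at least 9.08-fold and 9.35-fold at day 14, since no control array detected it. Serpina3n, a secreted protease inhibitor, rose 11.95-fold and 6.70-fold at day 3 and 2.21-fold and 4.08-fold at day 14. Its response fell from day 3 to day 14 in the wild type, as did those of Mt1 and Mt2 (log2 difference -2.44). Timp1, an inhibitor of matrix metalloproteinases, rose 13.02-fold, 8.36-fold, 6.89-fold and 18.6-fold in the same order. Socs3, the feedback inhibitor of STAT3 signalling, rose by 1.64, 2.80, 0.78 and 1.63 on the log2 scale, and Stat3 by 1.33, 1.67, 1.26 and 0.77. Without denervated replicates 2 and 3 the fitted day 3 knockout differences were 5.05 for Orm2, 3.21 for Serpina3n, 3.99 for Timp1, 2.86 for Socs3 and 1.41 for Stat3, and all 5 passed.

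Glucocorticoid-responsive genes included some whose day 14 response differed between the genotypes. For Mt1 and Mt2 that difference is only described, without a test. Tsc22d3, known as GILZ and used as a marker of glucocorticoid action, changed by 0.98 in wild type muscle at day 3 and by -0.94 at day 14, while its 0.16 in knockout muscle at day 3 did not pass and its 1.17 at day 14 did. Glul, glutamine synthetase, rose by 0.82 in wild type muscle at day 3 and by 1.42 in the knockout at day 14, with differences of 0.15 and -0.06 in the other 2 comparisons. Fbxo32, the atrophy ubiquitin ligase atrogin-1, rose by 1.10, 0.81 and 1.28 in wild type and knockout muscle at day 3 and knockout muscle at day 14, and had a difference of 0.04 in wild type at day 14. The genotype difference of the day 14 response passed upward for Tsc22d3 (2.12, limma, adjusted p = 0.002857), Glul (1.48), Fbxo32 (1.24, adjusted p = 0.04454) and Hsd11b1 (0.81), the enzyme that regenerates active glucocorticoid, and downward for Cebpd (-0.81). These are 4 higher and 1 lower of 18 genes tested, against 4.58% and 7.93% of all genes.

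Other genes of that list went another way. Fkbp5, a classical glucocorticoid target, fell at day 14 in both genotypes (-0.99 and -1.07), and Klf9 and Dusp1 fell in all 4 comparisons. In total 8 of 18 rose and 3 fell in wild type muscle at day 3 (median 0.46), against 20% and 17.5% of all genes. In the knockout 6 rose and 3 fell against 20.2% and 15.6% (median 0.16, with 2 and 2 without denervated replicates 2 and 3). At day 14, 4 rose and 4 fell in wild type against 22.9% and 18.6% (median -0.06), and 7 and 3 in the knockout against 19% and 17.7% (median 0.31). Without the 2 arrays the day 3 knockout calls of Fbxo32 (0.70, limma, adjusted p = 0.2741) and Klf9 (-0.54, adjusted p = 0.06599) were lost, and Dusp1 still passed (-1.01).

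**Figure D4:**
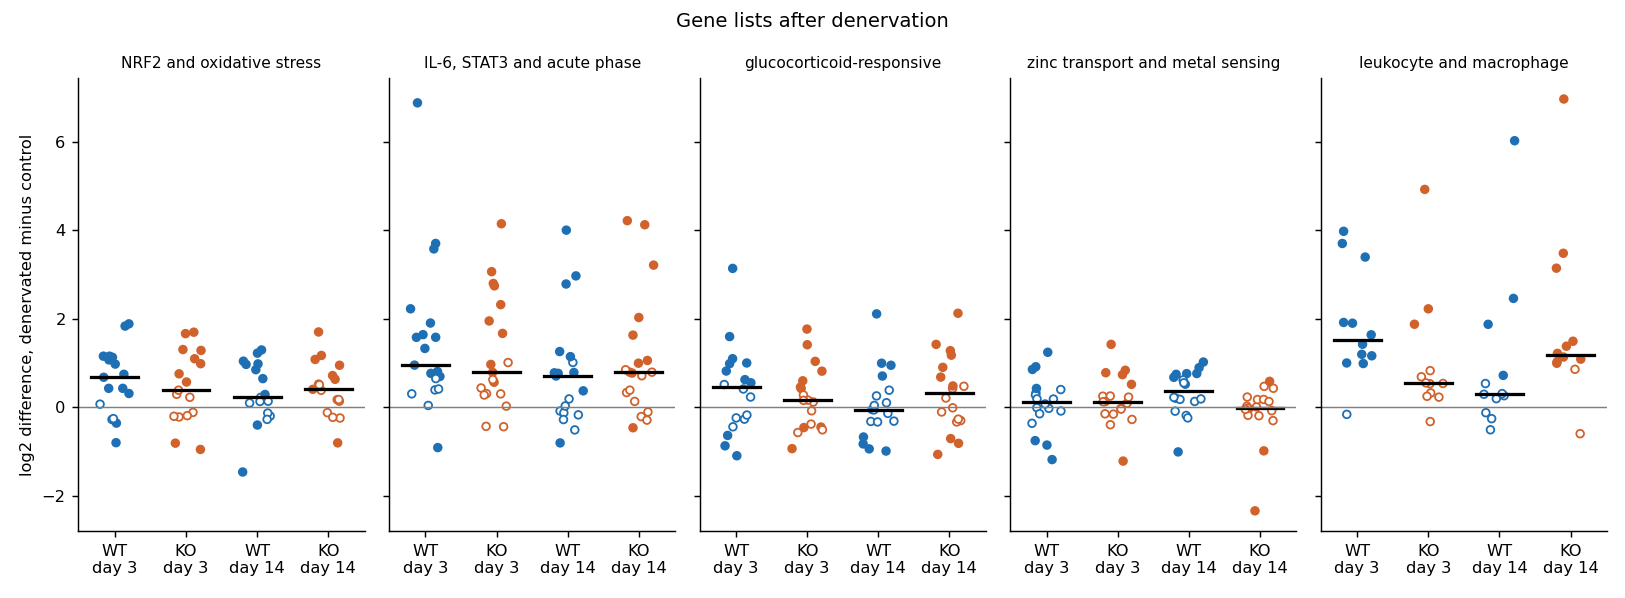
Denervated minus control log2 difference of each tested gene in 5 lists, for wild type (blue) and MuRF1 knockout (orange) muscle at days 3 and 14. Filled points passed an adjusted p under 0.05 and black lines are medians. The IL-6 and STAT3 medians lie at 0.95, 0.79, 0.70 and 0.79, and the zinc medians at 0.13, 0.12, 0.37 and -0.01.

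Genes beside the cluster moved in different ways. Mt4 had log2 differences of 0.42, -0.05, -0.03 and -0.18 in wild type and knockout muscle at day 3 and then at day 14, and none passed. Nup93, a nuclear pore protein encoded next to Mt1, rose in all 4 comparisons by 1.60, 1.23, 1.68 and 1.10. Gnao1, a G protein subunit, fell in all 4, by -1.70, -1.21, -1.16 and -1.35, and Bbs2 passed in none. Ogfod1 changed by 0.59 in wild type muscle at day 14 and by -0.55 in the knockout. Of 6 neighbours tested 1 rose and 1 fell in wild type muscle at day 3, against 20% and 17.5% of all genes. In the knockout 1 rose and 1 fell against 20.2% and 15.6%. At day 14, 2 rose and 2 fell in wild type against 22.9% and 18.6%. The knockout had 1 and 3 against 19% and 17.7%. Without denervated replicates 2 and 3 the day 3 knockout values of Nup93 and Gnao1 were 1.27 and -1.42, and both passed.

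The genes with the pattern most like the mean of Mt1 and Mt2 were ranked by Pearson r over the 24 arrays among 11048 genes. Highest were Eif4ebp1, which holds back translation initiation (r = 0.977), Hmox1 (0.969), the nucleolar protein gene Ebna1bp2 (0.969), the tetraspanin Cd63 (0.965), the RNA polymerase I subunit gene Polr1e (0.960), the tubulin Tubb5 (0.954), the adaptor Blnk (0.953) and Utp11 (0.952). Eif4ebp1 had a log2 normalized intensity of 12.86 ± 0.10 (SD, n = 3) in wild type controls of day 3 and 14.50 ± 0.07 after denervation. At day 14 its denervated level was 13.28 ± 0.08 in wild type and 13.80 ± 0.27 in knockout muscle. Most opposed were Ddo, D-aspartate oxidase (r = -0.962), Aldh4a1 of proline breakdown (-0.961), Ivd of leucine breakdown (-0.955) and Rilp (-0.954).

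With group means removed the highest were Rpain (r = 0.893), Pgls (0.874), Fap (0.867), Selenom (0.863), H2ac18 (0.862), Oxld1 (0.856), Selenoh (0.854) and Saysd1 (0.847). None of these was among the 8 genes highest over all arrays. These r values describe 24 arrays of 8 groups that share large group differences. Of the 8 genes highest within groups, all but Fap had their largest SD in denervated knockout muscle of day 3. That group holds the 2 arrays that stood apart, and r was not computed without them.

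The summed signal of leukocyte and macrophage markers ran with Mt1 and Mt2 across the arrays. Of 16 markers 12 could be tested, and 11 rose in wild type muscle at day 3 against 20% of all genes (median log2 difference 1.53). In the knockout 3 rose, near the share of 20.2% (median 0.54), and 8 rose without denervated replicates 2 and 3. At day 14, 4 rose in wild type against 22.9% (median 0.30) and 10 in the knockout against 19% (median 1.17), and none fell in any of these. Lgals3 rose by 3.70, 2.22, 2.46 and 3.14 on the log2 scale, Ccl8 by 3.39, 1.87, 1.87 and 3.48, and Adgre1, the macrophage antigen F4/80, by 1.42 in wild type muscle at day 3, 0.72 at day 14 and 1.38 in knockout muscle at day 14. Without the 2 arrays the day 3 knockout values were 2.49 for Lgals3, 2.55 for Ccl8 and 1.11 for Adgre1, and all 3 passed. The summed linear signal of the 12 markers ranged from 5074 to 5722 in wild type controls of day 3 and from 26830 to 31140 after denervation. In knockout muscle of day 3 it ranged from 5817 to 11940 in controls and from 16790 to 32510 after denervation.

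At day 14 the sum was 4129 to 5466 in wild type controls and 10720 to 18990 after denervation, and 3113 to 3847 and 19560 to 22620 in the knockout. The sum was higher in every denervated knockout sample of day 14 than in any denervated wild type sample. Marker by marker, however, 0 of 12 passed higher and 1, Cd52, passed lower in that genotype difference (limma), where 2.7% of all genes passed higher and 4.21% lower, and the median log2 difference of the markers was 0.65. Of the 12 markers 11 had a positive difference, 5 of them with an unadjusted p under 0.05. Ptprc, the pan-leukocyte antigen CD45, and Itgam were detected on no array of 7 of the groups, and in denervated knockout muscle of day 14 Cd52 was the undetected marker. The log2 sum had an r of 0.931 with the mean of Mt1 and Mt2 over the 24 arrays and of 0.653 with group means removed. The relation was not the same in each group. In denervated knockout muscle of day 3 both were highest in replicate 1 and lowest in replicate 3. In denervated wild type muscle of day 3 the sample with the highest sum, 14.93, had the lowest Mt1 and Mt2 mean, 13.35. The r was not computed without the 2 arrays that stood apart. The part of these cells in the metallothionein values was not tested.

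**Figure D5:**
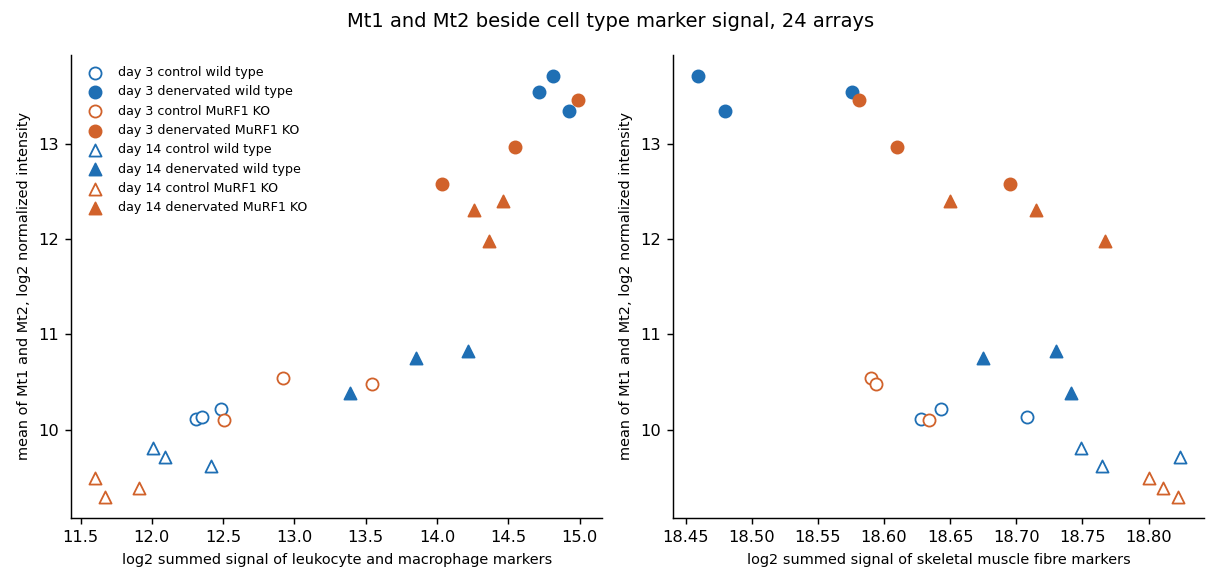
Mean log2 normalized intensity of Mt1 and Mt2 against the log2 summed signal of 12 leukocyte and macrophage markers (left) and of 10 skeletal muscle fibre markers (right) in the 24 samples. Blue is wild type, orange MuRF1 knockout, filled denervated, open control, circles day 3 and triangles day 14. The leukocyte sum runs with Mt1 and Mt2 (r = 0.931), and the fibre sum runs against them (r = -0.702) over a far smaller range.

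Of 10 muscle fibre markers tested, 1 rose and 3 fell in wild type muscle at day 3, against 20% and 17.5% of all genes. In the knockout 0 rose and 0 fell against 20.2% and 15.6%. At day 14, 2 rose and 2 fell in wild type against 22.9% and 18.6%. The knockout had 2 and 4 against 19% and 17.7%. Their summed linear signal was 360400 to 390700 in denervated wild type muscle of day 3 and 405100 to 428100 in its controls. In knockout muscle of day 3 the ranges overlapped, at 392300 to 424400 after denervation and 394600 to 406900 in controls. At day 14 the sum was 418500 to 438200 after denervation and 440400 to 464200 in controls of the wild type. The knockout had 411200 to 446100 and 456400 to 463600. The log2 sum had an r of -0.702 with the mean of Mt1 and Mt2. For Mt3, the neural and astrocyte markers Slc1a2 and Gfap were detected on no array of denervated muscle of day 14 in either genotype, where Mt3 was highest. Rbfox3 was not detected there either, and Snap25 was detected on at least 1 array of the knockout and none of the wild type. Aqp4, the only gene of this list that could be tested, was near background after denervation and fell in all 4 comparisons. Its control means were 9.56 to 10.59, in groups where no array detected Gfap or Slc1a2. Aqp4 is therefore not read here as a sign of astrocytes or neurons, nor of the source of Mt3. Its fitted differences were -4.66 and -3.52 in wild type and knockout muscle at day 3 and -4.99 and -4.60 at day 14. Without denervated replicates 2 and 3 the day 3 knockout value was -3.79. Its r with the mean of Mt1 and Mt2 was -0.825, and -0.429 with group means removed.

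The counts of the other lists stand beside these shares of all genes. At day 3, 20% were higher and 17.5% lower in wild type muscle, and 20.2% and 15.6% in the knockout. At day 14 the shares were 22.9% and 18.6% in wild type and 19% and 17.7% in the knockout. Fibroblast markers counted 2 higher and 1 lower of 6 in wild type muscle at day 3. In the knockout they counted 2 and 0, and at day 14 each genotype had 0 and 1. Endothelial markers counted 0 and 4 of 8, then 1 and 0, 0 and 3, and 1 and 4 in the order wild type and knockout at day 3 and then day 14. The 3 Schwann cell markers tested counted 0 and 2, 1 and 2, 0 and 2, and 1 and 2, and the 4 adipocyte markers 0 and 2, 0 and 2, 0 and 3, and 0 and 0. The satellite cell markers Cdh15 and Sdc4 both rose in wild type muscle at both days and in knockout muscle at day 14, and 1 of them, Cdh15, rose in the knockout at day 3. Without denervated replicates 2 and 3, the day 3 knockout counts became 0 and 0 for endothelium, 0 and 2 for Schwann cells and 0 and 0 for adipocytes, and stayed at 2 and 0 for fibroblasts and 1 and 0 for satellite cells. The summed signals of these lists had r values with the mean of Mt1 and Mt2 of -0.304 for fibroblasts, -0.286 for endothelium, -0.510 for Schwann cells, -0.267 for adipocytes and 0.829 for satellite cells. With group means removed these were 0.307, 0.193, 0.101, -0.018 and -0.071 in the same order, and -0.616 for the muscle fibre sum, and their part in the metallothionein values was not tested. These r values include the 2 arrays that stood apart and were not computed without them.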

How the data were processed

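Labelled RNA of the 24 samples was hybridised to Illumina BeadChips with 1 colour. The deposited non-normalized table gives, per the file headers, an intensity and a detection p-value for each probe and array, made with BeadStudio 3.2.3 per the submitters' processing notes. The authors' processed intensity values, background-subtracted and quantile-normalized to judge by their distribution, were an alternative.

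The neqc function of limma 3.58.1 (R 4.3.3) took the background from the detection p-values, added an offset of 16, normalized by quantiles and gave log2 values. Probes detected at p under 0.05 on at least 3 arrays were kept (21997 of 46632), and the brightest named probe of each gene was used. Limma was fitted to 8 group means on all 24 arrays (16 residual degrees of freedom), with eBayes, two-sided tests and Benjamini-Hochberg adjustment over 11317 genes within each of 15 contrasts, 7 of which were tested for the members. The fit was tested on simulated data. The median SE was 0.19 for a denervation difference, and the number of arrays limits precision.

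The members, gene lists and marker lists were chosen with earlier results of these data known. Genes named are the members, any listed gene, and the genes most like (8) and unlike (4) the mean of Mt1 and Mt2 over arrays and most like it within groups (8), with predicted models and clone names passed over. Deviations of arrays with the same replicate number from their group means had a median r of -0.00367 over 84 pairs, so the numbers were not taken as pairs. Alternatives varied normalization, offset, source table, filter, probe choice, samples, a covariate, a replicate block and single samples. List counts without 2 arrays were added after seeing the data.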

Additional observations from a re-analysis of the deposited data

Results flagged for a closer look

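In wild type muscle the response of Mt1 to denervation was smaller at day 14 than at day 3, by a log2 difference of -2.17 that passed the test of the difference itself (limma, adjusted p = 6.77e-06). Every denervated Mt1 sample of day 14 was below every one of day 3.

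The response of Mt2 differed in the same way, by -2.72 (limma, adjusted p = 1.658e-05), again with every denervated sample of day 14 below those of day 3.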

How the results depend on the processing

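Of the member values under settings other than leaving out single samples, 377 kept their direction and side of the threshold (or moved by less than 1 SD where not tested), 25 moved, 1 reversed and 2 newly passed. Every tested denervation call of Mt1 and Mt2 held under all of them. With the number of detected probes as a covariate, the day 14 knockout responses became 3.16 for Mt1, 3.26 for Mt2 and 3.67 for Mt3, their change from day 3 became 0.21, -0.50 and 3.04, the interaction of all 3 factors (2.65, 2.65 and 2.47 as fitted) became 2.37, 2.19 and 1.99, and the day 14 minus day 3 control differences became -0.33, -0.060 and, reversed, 0.31. With median centring the interaction of all factors was 2.38 for Mt1 and 2.21 for Mt2, the Mt2 change of response in the knockout -0.62, and the control differences -0.18 and -0.28. With an offset of 50 Mt3 gave 2.52 in the day 14 knockout response, 2.72 for its change and 1.90 for the interaction of all factors, and the Mt2 genotype difference in denervated muscle at day 3 passed at -0.72 (limma, adjusted p = 0.03291), as it did at -0.73 with the stricter filter (limma, adjusted p = 0.0416). Without the 2 day 3 denervated knockout arrays of most detected probes, the change of response in the knockout was 0.13, -0.64 and 2.90 and the interaction of all factors 2.30, 2.08 and 1.88. The causes of these shifts were not tested. Where leaving out 1 sample at a time changed a call or moved a value, the ranges were -0.52 to -0.20 and -1.02 to -0.45 for the genotype difference of Mt1 and Mt2 in denervated muscle at day 3, -0.82 to -0.50, -1.16 to -0.58 and -1.65 to -1.10 for the 3 genotype by denervation differences at day 3, 0.89 to 1.16 for the wild type response of Mt3 at day 3, 0.49 to 1.46 for its change to day 14, which passed only without denervated replicate 1 of day 14 (limma, adjusted p = 0.03702), and 2.03 to 3.00 for its interaction of all factors. The replicate numbers do not pair the samples; with the replicate block Mt1 in wild type muscle kept 3.04 at day 3 (limma, adjusted p = 1.436e-10), and no member call changed.

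Counts of all genes that moved by over 1.5 times were, in the knockout at day 3, 4055 as fitted against 1671 with the covariate and 1933 without the 2 arrays. For the genotype difference in denervated muscle at day 3 they were 811 against 1294 with median centring, 154 with day 3 samples only, 40 with the covariate and 28 without the 2 arrays, with 180 to 2168 when 1 sample was left out. In control muscle at day 3 they were 59 against 26, 37 and 93 (centring, day 3 only, covariate) and 28 to 401. For genotype by denervation they were 122 at day 3 against 206 (offset), 80 (authors' processed values), 60 (no filter), 70 (mean of probes), 17 (day 3 only), 10 (covariate), 3 (without the 2 arrays) and 31 to 983, and 1415 at day 14 against 2410 (covariate) and a lowest of 708 with 1 sample left out. Counts of further comparisons moved too, among them the following. The change of response in the knockout had 2332 against 4742 (centring) and 1084 (covariate). The interaction of all factors had 1644 against 812 (covariate). The day difference in controls had 4688 against 224 (covariate). The genotype differences at day 14 had 783 against 520 (centring) and 1791 (covariate) in denervated muscle, and 624 against 258 (centring) in controls. Median centring turned the sign of 2 of 62 called list or marker genes in the knockout at day 3, Ccs and Klf15, and of none of those called in the other denervation comparisons. In the knockout at day 3 without the 2 arrays, 1 NRF2 gene fell in place of 2, 1 muscle fibre marker rose in place of 0, the adipocyte markers that fell went from 2 to 0, and the endothelial and Schwann cell markers that rose each went from 1 to 0. Intensities near background, as for Mt3 in control muscle, limit the folds of dim genes.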
